A study of Mus musculus with 2 samples.

Results

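The cells described here are tumor-infiltrating leukocytes with transcripts of Lyz2, a lysozyme gene of monocytes, macrophages and neutrophils, together with Vcan, Lilra6 and Cd24a. They numbered 357 of 9911 cells within the quality limits, 223 in the control group and 134 in the telmisartan group. A member was selected on its own counts of unique molecular identifiers (UMIs, each standing for 1 captured transcript). It had at least 5 UMIs of Lyz2, no UMI of Cd3d, Cd3e or Cd3g, and at least 1 UMI of each of Vcan, Lilra6 and Cd24a. It also had UMIs of fewer than 3 of the 5 genes Ereg, Areg, Il1a, Il23a and Dcstamp, and it did not combine at least 2 Cxcl9 UMIs with at least 3 summed UMIs of Serpina3g, Iigp1 and Gbp2. Values of these genes, and every difference between members and other Lyz2 cells, follow from that choice and are given as a description.

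The study grew MC38 colon carcinoma cells under the skin of female C57BL/6 mice aged 6 to 8 weeks and sequenced the CD45-positive cells of the tumors by BD Rhapsody. Telmisartan, a blocker of the angiotensin II type I receptor, was given by gavage at 5 mg/kg each day from implantation, and control mice received vehicle. Tumors were taken on day 13 and those of 5 mice were pooled in each group, so that the control and the telmisartan group are 1 sample each and animals cannot be told apart. Both pools were captured in 1 library and separated by Sample Tags, the barcoded antibodies that label all cells of a pool. With 1 pool a group no difference could be tested, and all intervals are exact 95% intervals that cover counting error only.

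Blood monocytes enter growing tumors through CCR2, lose Ly6C and take on macrophage features there over several days. Tissue macrophages that have matured express complement C1q, apolipoprotein E, the uptake receptor MerTK and lysosomal proteases, whereas cells that have just arrived still carry monocyte genes. Versican (Vcan) is a large chondroitin sulfate proteoglycan of the matrix that binds hyaluronan, Lilra6 belongs to the activating receptors of the leukocyte immunoglobulin-like family, and CD24 (Cd24a) is a small glycosylated surface protein bound by Siglec receptors.

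The macrophage part of the working name held for some markers only. Csf1r, the receptor for the macrophage growth factor CSF1, had a UMI in 98.7% of control and 94.8% of telmisartan members, against 12.8% and 18.1% of T cells. Cd68, a lysosomal glycoprotein, had one in 97.3% and 97.8% of members, against 15.4% and 29.2% of T cells. The median UMIs per cell were 11453 and 10187 in members and 3116 and 3353 in the T cells, which were 39 control and 72 telmisartan cells with at least 3 Cd3 UMIs. In contrast, Mertk had a UMI in 24.7% and 17.2% of members, Adgre1, which encodes F4/80, in 53.8% and 53.0%, and C1qa in 31.8% and 29.1%. All 12 macrophage markers had UMIs in both groups, and all 12 were lower in members than in other Lyz2 cells in both groups. Ptprc, the gene of CD45, had a UMI in 93.7% and 90.3% of members. Because macrophage markers were low and monocyte genes high as a sum, the cells are called members, or Vcan Lilra6 Cd24a cells, below.

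Near the limits of the definition, membership often hung on 1 UMI. Vcan had a median of 4 UMIs per control member and 3 per telmisartan member, with a highest count of 40 and 28. Cd24a had the same medians of 4 and 3. Lilra6 had a median of 1 in both groups, and 137 control and 81 telmisartan members held exactly 1 Lilra6 UMI, or 61.4% and 60.4%. At least 2 UMIs of each of the 3 genes were present in 59 control and 35 telmisartan members, and exactly 1 UMI of each in 9 and 6. Just inside the limit on Ereg, Areg, Il1a, Il23a and Dcstamp, 53 control and 29 telmisartan members had UMIs of exactly 2 of these genes, and just outside it 15 and 7 cells with Vcan, Lilra6 and Cd24a had UMIs of exactly 3. The lowest Lyz2 count was 6 UMIs in a control and 10 in a telmisartan member, and the Lyz2 limit alone left out 0 control and 1 telmisartan cell.

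Cells with 2 of the 3 genes mostly missed Lilra6. Among Lyz2 cells that passed both exclusions, 223 of 3354 control cells had all 3 genes, 654 had 2, 1001 had 1 and 1476 had 0. In the telmisartan group, 134 of 3392 had all 3, 537 had 2, 1000 had 1 and 1721 had 0. Lilra6 was the missing gene in 431 of the 654 control cells and in 371 of the 537 telmisartan cells. In T cells, taken as background for free RNA, Vcan had a UMI in 5 of 39 control and 1 of 72 telmisartan cells, Cd24a in 1 of 39 and 3 of 72, and Lilra6 in 0 of 39 and 0 of 72. The 0 counts allow shares of up to 9.03% and 4.99%. Of Lyz2 cells that passed both exclusions, with median UMIs of 9112 and 7076, Vcan had a UMI in 35.5% and 26.7%, Lilra6 in 17.2% and 11.6%, and Cd24a in 36.1% and 34.8%.

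Lilra6 lies on chromosome 7 (GRCm38, 3908280 to 3915503, minus strand) among near-identical paralogs. Of the 3315 runs of 75 bases in its transcripts, 566 or 17.1% also occur in another gene, most often in Pirb, Gm14548 or Pira2. For Pira2 that share was 88.3%, for Cd24a on chromosome 10 it was 1.10%, and for Vcan on chromosome 13 it was 0. Which paralog a Pira2 count came from is therefore uncertain, and part of the Lilra6 counts carries the same doubt.

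The number of Vcan Lilra6 Cd24a cells per Lyz2 cell was lower in the telmisartan group. They were 223 of 4321 control Lyz2 cells, or 5.16% (interval 4.52 to 5.86), and 134 of 3854 telmisartan Lyz2 cells, or 3.48% (2.92 to 4.11). The log2 ratio was −0.57 (−0.89 to −0.25). Depth differed as well, since Lyz2 cells had a median of 9784 UMIs in the control and 7388 in the telmisartan group, and a cell must be deep enough to show all 3 genes. With every cell thinned to 5000 UMIs, which left out 1178 control and 1774 telmisartan cells, the shares were 98 of 3578 or 2.74% (2.23 to 3.33) and 54 of 2787 or 1.94% (1.46 to 2.52). Those intervals overlap, at a log2 ratio of −0.50, and at 3000 UMIs the ratio was −0.91. The part of depth in the unthinned difference was not tested.

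Cells left out by the quality limits held few candidates. Of Lyz2 cells over the mitochondrial limit, 0 of 712 control and 1 of 1238 telmisartan cells met the gene definition. Over the limit of 5000 genes, 4 of 69 control and 1 of 15 telmisartan cells met it. Cells whose tag reads were split between the pools, which are doublets or carry stray tags, met it in shares that overlapped those of cells with 1 tag, 37 of 715 or 5.17% (3.67 to 7.06) against 357 of 8175 or 4.37% (3.93 to 4.83). The 20726 cell indices of the library were all found in both tables, and 0 were repeated.

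Against other Lyz2 cells, the members showed more monocyte and fewer mature macrophage transcripts. The comparison cells were the 3131 control and 3258 telmisartan cells that passed the same exclusions and lacked at least 1 of the 3 genes, weighted to the members' depth. The 9562 genes compared had at least 100 UMIs in members plus comparison cells in each group. A gene could reach that limit through the comparison cells alone, as Azin2 did with 0 UMIs in members. Of the 9562, 16 were at least 2-fold higher in members in both groups (0.167%) and 177 at least 2-fold lower (1.85%). Of all these genes, 58.8% in control and 54.5% in telmisartan were lower in members by any amount. Because the members were chosen by this contrast, nothing is read from these shares. Levels are given as CPM, the UMIs of a gene scaled to a sum of 1000000 UMIs over the cells.

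**Figure D1:**
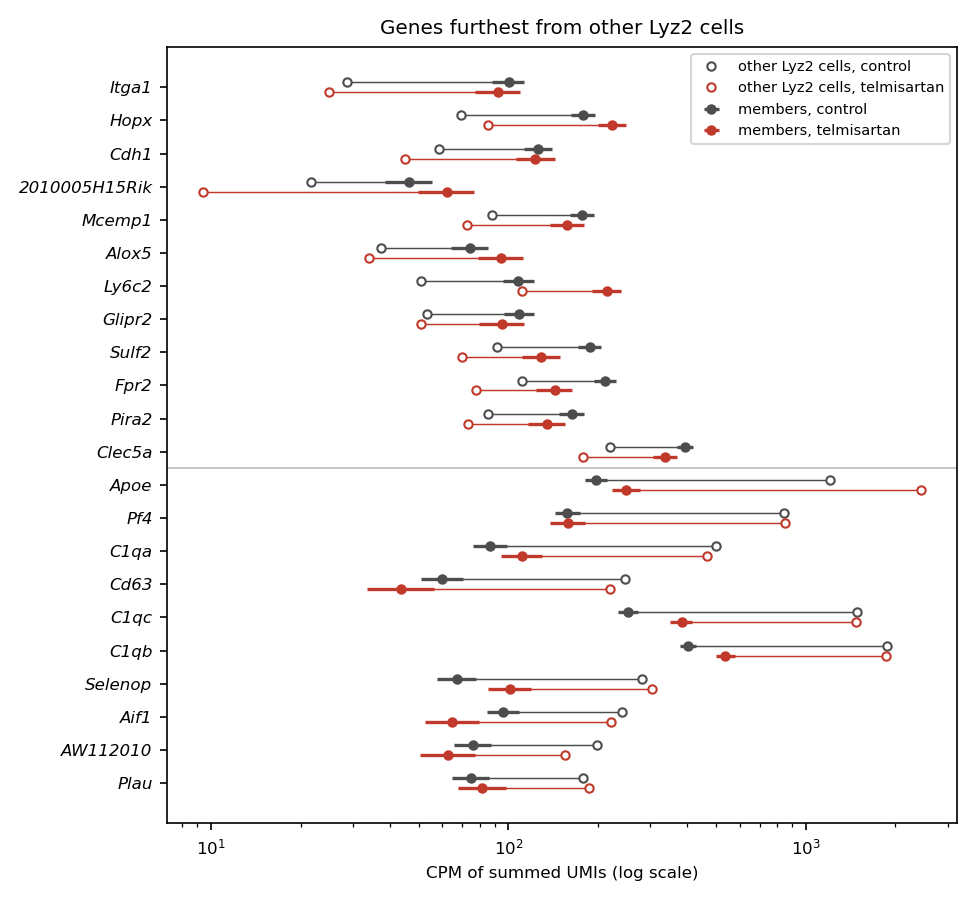
CPM on a log scale in members (filled, with exact 95% Poisson intervals) and in depth-weighted other Lyz2 cells (open), for control and telmisartan. The genes are the 15 highest, without Vcan, Lilra6 and Cd24a, and the 10 lowest in members by the smaller ratio of the groups. Apoe had 197.5 CPM in control members against 1210.0 in the comparison cells.

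The named genes above the comparison cells, beside Vcan, Lilra6 and Cd24a, included Itga1, Cdh1, Hopx and Fpr2. Itga1, the alpha subunit of a collagen-binding integrin, had 100.1 CPM in control and 92.3 in telmisartan members, against 28.7 and 24.8 in the weighted comparison cells. Cdh1, which encodes the adhesion protein E-cadherin, had 125.7 and 123.3 CPM against 58.3 and 44.9. Hopx, a small homeodomain protein without DNA-binding activity of its own, had 178.0 and 223.4 CPM against 69.1 and 85.5. Log2 ratios over the comparison cells were 1.80 and 1.89 for Itga1 and 1.36 and 1.39 for Hopx. The formyl peptide receptors, which sense bacterial and mitochondrial peptides, were higher too, Fpr2 by 0.93 and 0.88 and Fpr1 by 1.19 and 1.52 on the log2 scale. Mcemp1, a membrane protein of mast cells and myeloid cells, was at 1.00 and 1.12. Clec5a, a receptor that signals through the adaptor DAP12, was at 0.84 and 0.92, and Alox5, which makes leukotrienes, at 0.99 and 1.47. 2010005H15Rik had a UMI in 13.5% and 13.4% of members, so its 46.2 and 62.0 CPM came from few cells.

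Monocyte genes were higher in members as a sum but not each on its own. Of the 12 monocyte genes measured in the comparison, 8 were higher and 4 were lower in members in both groups. Fn1, the fibronectin gene, had 5195 CPM in control and 4397 in telmisartan members against 2868 and 2576 in the comparison cells. Ccr2, the receptor that brings monocytes into tissue, had 1034 and 882.4 CPM against 580.8 and 504.2. Ly6c2, the gene of the Ly6C surface marker, had 108.1 and 214.3 CPM against 50.8 and 110.7. Summed over its 13 genes, the monocyte list had 9734 CPM in control members (9615 to 9855) and 9052 in telmisartan members (8896 to 9210), and 6214 and 6551 in the comparison cells. The sum was higher in members by log2 0.65 in control and 0.47 in telmisartan, or by 0.44 and 0.23 without Fn1. Hp, which encodes haptoglobin, was at 8.02 and 21.1 CPM in members. F13a1, a coagulation factor subunit made by monocytes, was lower in members, at log2 −0.74 and −1.15.

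Among genes with at least 200 UMIs, the 10 lowest in members included Apoe, C1qa, C1qb and C1qc, which are 4 of the 12 macrophage markers. Apoe had 197.5 CPM in control and 248.8 in telmisartan members against 1210.0 and 2441 in the comparison cells. C1qa, C1qb and C1qc encode the 3 chains of complement C1q. C1qc had 252.9 and 382.0 CPM against 1485 and 1476, C1qb 402.3 and 536.4 against 1871 and 1861, and C1qa 86.7 and 111.4 against 500.1 and 463.9. The macrophage markers as a list summed to 3348 CPM (3278 to 3418) in control and 3583 (3485 to 3683) in telmisartan members, against 8394 and 9557. Of its 12 genes, 5 were at least 2-fold lower in both groups. Pf4, a chemokine of tissue macrophages and platelets, was at log2 −2.42 in both groups. Selenop, which carries selenium, was at −2.07 and −1.59, Cd63, a lysosomal tetraspanin, at −2.04 and −2.32, and Aif1, an actin-binding protein, at −1.32 and −1.77. Lysosomal Ctsb, which encodes cathepsin B, had 906.5 and 955.0 CPM against 1905 and 2303.

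Levels of several of these genes were graded along the number of definition genes detected. Because the strata come from the definition itself, this is a description. From 0 to 3 genes, median UMIs per cell rose too, at 8548.5, 8898, 9836 and 11453 in the control group. In the telmisartan group the medians were 6441, 7201.5, 8480 and 10187. Levels here are not weighted for depth, and the part of depth was not tested. Along cells with 0, 1, 2 and 3 of the definition's genes, C1qc had 2152, 1111, 501.9 and 252.9 CPM in the control group. In the telmisartan group it had 1967, 995.9, 507.8 and 382.0 CPM. Apoe had 2192, 897.5, 289.5 and 197.5 CPM in the control and 4204, 1670.3, 741.0 and 248.8 CPM in the telmisartan group. In the other direction, Clec5a had 154.1, 232.1, 317.3 and 393.5 CPM in the control and 139.4, 183.3, 244.9 and 336.9 CPM in the telmisartan group. Itga1 had 13.8, 37.3, 56.7 and 100.1 CPM in the control and 12.8, 28.4, 46.7 and 92.3 CPM in the telmisartan group. Ly6c2 had no steady order, at 46.5, 93.2, 73.2 and 108.1 CPM in the control and 139.5, 208.7, 206.0 and 214.3 CPM in the telmisartan group. When members were compared with cells that had exactly 2 of the 3 genes, 6400 genes could be compared. Of these, 1 gene, Lilra6 of the definition, was at least 2-fold higher and 13 were at least 2-fold lower.

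**Figure D2:**
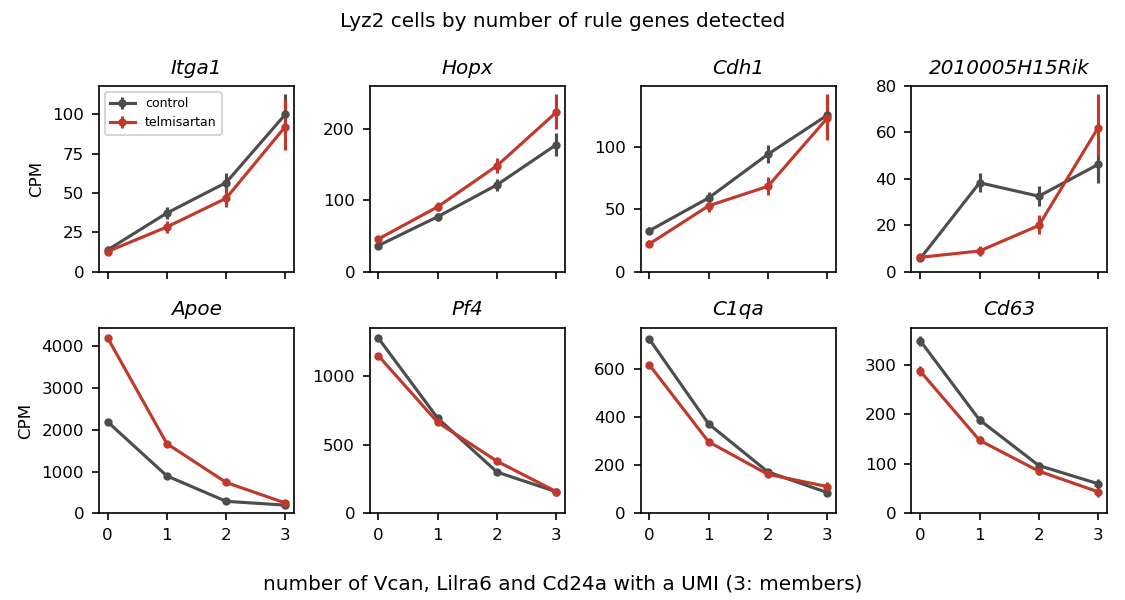
CPM, with exact 95% Poisson intervals, in Lyz2 cells that passed both exclusions and had 0, 1, 2 or 3 of Vcan, Lilra6 and Cd24a, for control and telmisartan. Apoe goes from 2192 to 197.5 CPM in the control group as the number of genes goes from 0 to 3, while 2010005H15Rik in the control group has no steady order. The CPM are not weighted for depth, and median UMIs per cell rise with the number of genes.

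Markers of other cell types were read as whole lists. The neutrophil list, with 6 of 9 genes detected in control and 5 of 9 in telmisartan members, had 252.1 and 119.1 CPM, with Mmp8 its most abundant gene at 102.8 and 99.4 CPM. Ly6g, Camp and Ngp were at 0 in both groups. A single control member held 326 neutrophil-marker UMIs among its 5510 UMIs. Of the control members' 267 S100a8 UMIs, 220 lay in 1 cell. In the depth-weighted comparison cells the neutrophil list had 75.5 and 95.5 CPM. Mmp8 was higher in members than in those cells, by log2 1.00 in control and 0.52 in telmisartan. The dendritic cell list had 9 of 11 genes and 34 UMIs in control and 6 of 11 and 15 UMIs in telmisartan members, led by Kit at 3.44 CPM and Ccr7 at 4.23 CPM, with Xcr1 and Siglech at 0. The T cell list had 7 of 10 genes in each group and 122.2 and 134.6 CPM, of which Il7r made 111.5 and 117.7, and Cd8a and Cd4 were at 0.

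The remaining lists were close to 0 apart from 1 gene. The B and NK cell list had 4 of 8 genes and 2.67 CPM in control and 2 of 8 and 2.11 CPM in telmisartan members, most of it Klrd1 at 1.53 and 1.41 CPM, with Cd79a, Ncr1 and Eomes at 0. The mast cell and basophil list had 0.382 CPM in control and 0 in telmisartan members, all of it 1 UMI of Gata2, with Mcpt8, Cpa3, Fcer1a, Ms4a2 and Tpsb2 at 0. The tumor epithelial list had 4 of 10 genes and 135.6 CPM in control and 2 of 10 and 129.0 CPM in telmisartan members. Cdh1 made 125.7 and 123.3 CPM of that, and the keratins Krt8, Krt18, Krt19, Krt7 and Krt20 and Cldn7 were at 0. The fibroblast and endothelial list had 5 of 8 and 6 of 8 genes and 18.3 and 17.6 CPM, led by Pecam1 at 14.1 and 6.34 CPM, with Pdgfrb and Kdr at 0. The erythroid list had 4 of 5 and 1 of 5 genes and 5.35 and 1.41 CPM, led by Hba-a1 at 1.91 and Hba-a2 at 1.41 CPM, with Alas2 at 0. The part of these transcripts in the members' profile was not tested.

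Partners of the 3 proteins were measured next to them. Vcan itself had 553.2 CPM (525.0 to 582.4) in control and 461.7 CPM (427.0 to 498.4) in telmisartan members, at a log2 ratio of −0.26 (−0.40 to −0.13). Cd44, the hyaluronan receptor, had 935.2 and 1109 CPM, and Tlr2, a pattern receptor that versican can bind, 370.2 and 587.1 CPM. Of 18 genes in the list of versican and hyaluronan partners, 10 had a UMI, and the list summed to 1918 CPM (1865 to 1972) and 2280.1 CPM (2202 to 2360.0). Selplg, a ligand of P-selectin as CD24 is, had 114.2 and 149.4 CPM. The CD24 partners summed to 762.5 CPM (729.4 to 796.7) and 830.3 CPM (783.5 to 879.1), led by Hmgb1 in control and by Lyn, the kinase that acts below Siglecs, in telmisartan members. Cd24a had 423.3 and 398.2 CPM at a log2 ratio of −0.09 (−0.24 to 0.06).

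Lilra6 had 148.2 CPM (133.8 to 163.7) in control and 154.4 CPM (134.6 to 176.2) in telmisartan members, a level that the definition itself largely sets. Activating receptors of its family signal through Fcer1g, the Fc receptor gamma chain, or Tyrobp, which encodes DAP12. Fcer1g had 2269.5 and 2134 CPM in members and Tyrobp had 1698 and 1655 CPM. Over the comparison cells, the log2 ratio of Fcer1g was −0.20 and −0.27 and that of Tyrobp 0.10 and 0.11. Pira2, with the paralog doubt given above, had 163.1 and 134.6 CPM, at log2 ratios of 0.93 and 0.88. Pilra, an inhibitory receptor, had 441.2 and 359.5 CPM at 0.45 and 0.32. Of the 8 genes of the paired immunoglobulin-like receptor list compared, 6 were higher and 1 lower in members in both groups, and the summed list of 9 measured genes differed by log2 0.00 and −0.01.

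Set beside the Ereg and Cxcl9 types, which the exclusions concern, and a Folr2 type, members had the highest monocyte and the lowest macrophage sums. The Ereg type (156 control and 100 telmisartan cells, with UMIs of at least 3 of Ereg, Areg, Il1a, Il23a and Dcstamp) had 7341 and 6421 CPM of monocyte genes and 4337 and 5722 CPM of macrophage markers. The Cxcl9 type (836 and 367 cells) had 3705 and 4091 CPM of monocyte genes and 8423 and 9522 CPM of macrophage markers. The Folr2 type (144 and 91 cells with UMIs of Folr2, Cbr2 and Fcrls) had 3740.2 and 4887 CPM of monocyte genes and 17731.7 and 18596.8 CPM of macrophage markers, and 0 of its cells were members. Since the definition and its exclusions shaped these sets, these are descriptions. MHC class II transcripts summed to 8463.5 and 6871 CPM in members, 13335.6 and 17027.1 in the Ereg type, 23412.3 and 17835.4 in the Cxcl9 type and 3509 and 2764 in the Folr2 type. Members thus lay between the Folr2 and the Ereg type for class II. All 3 genes were present in 26 cells of the Ereg type and 31 of the Cxcl9 type, which the exclusions kept out.

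Members varied widely among themselves in class II transcripts. Thinned to 5000 UMIs, control members had a median of 15 class II UMIs, with quartiles of 5 and 67 and a highest count of 262. Telmisartan members had a median of 12.5, quartiles of 5 and 51.8 and the same highest count. Monocyte genes were more even, with a median of 46 UMIs and quartiles of 31 and 66 in control members and a median of 43 and quartiles of 32 and 55.8 in telmisartan members. Macrophage markers had medians of 14 and 15 UMIs. Inflammatory cytokines ranged from 1 to 202 UMIs around a median of 30 in control members and from 0 to 110.0 around 40 in telmisartan members.

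Across members thinned to 5000 UMIs (213 control and 126 telmisartan cells, each set from 1 pool of 5 mice), some lists varied together. Genes of both lists were left out of a pair, and 91 pairs of 14 lists were looked at. Monocyte genes correlated with class II genes at Spearman's rho of −0.40 in control and −0.36 in telmisartan members. Members with many class II transcripts thus had fewer monocyte transcripts in both pools. Chemotaxis genes correlated with inflammatory cytokines at 0.52 and 0.43, and with matrix and proteolysis genes at 0.47 and 0.40. Translation factors correlated with ribosomal proteins at 0.49 and 0.42. S phase and mitosis genes correlated at 0.29 and 0.43.

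Telmisartan and control members differed at least 2-fold in few genes. Of 5123 genes with at least 100 UMIs in members, 77 were at least 2-fold higher with telmisartan (1.5%) and 23 at least 2-fold lower (0.449%). With each cell given equal weight the numbers were 63 and 37, and with UMIs per cell and no scaling for depth 44 and 48, a setting that puts the median gene at −0.17. The median log2 ratio over the 5123 genes was −0.02, with quartiles of −0.22 and 0.18, and 2407 of them were higher and 2716 lower (53.0%), the shares to set beside the list counts below. In other Lyz2 cells the same genes had a median of −0.04. Ratios below are telmisartan over control on the log2 scale.

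**Figure D3:**
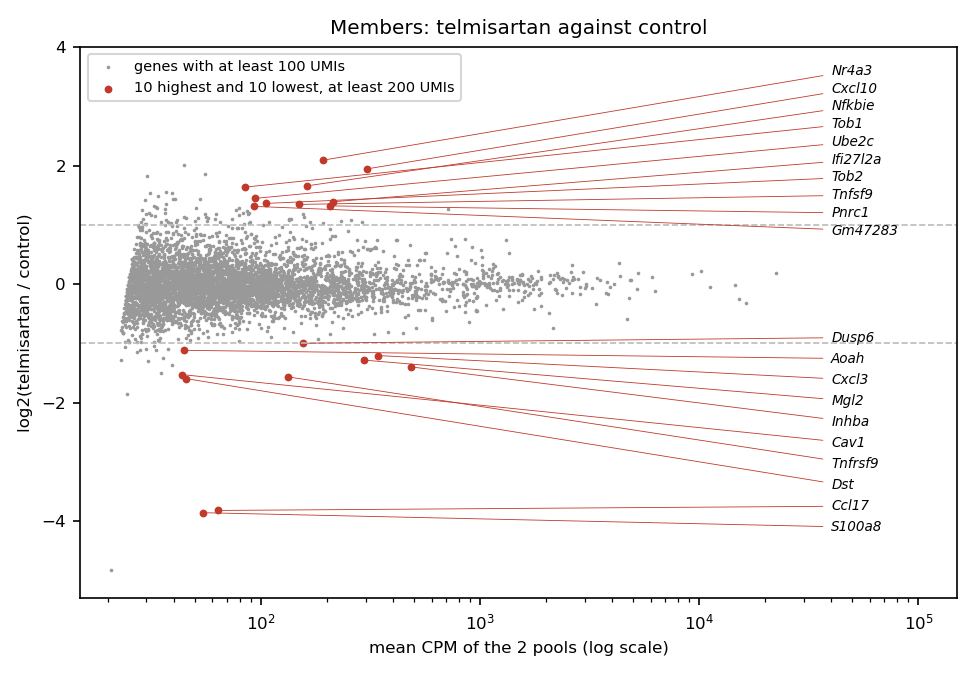
Log2 ratio of telmisartan over control members against the mean CPM of both pools on a log scale, for genes with at least 100 UMIs. The 10 highest and the 10 lowest named genes are marked, with Nr4a3 at 2.09 and S100a8 at −3.86, most of whose control UMIs lay in 1 cell.

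Most of the 10 named genes highest with telmisartan in members were also clearly higher in other Lyz2 cells, but Ube2c, at 1.45 in members, was at 0.06 there, and Cxcl10, at 1.94, was at 0.45. Nr4a3, a nuclear receptor gene of the immediate-early type, had 73.0 CPM in control and 310.8 in telmisartan members, a ratio of 2.09 (1.84 to 2.34), and 1.44 in other Lyz2 cells. Its UMIs were spread over 31.4% of control and 69.4% of telmisartan members. In T cells the shares were 25.6% and 56.9%. Nfkbie, an inhibitor of NF-κB, had 78.3 and 247.4 CPM, a ratio of 1.66 (1.41 to 1.92), and 1.21 in other Lyz2 cells. Tob1 and Tob2, a pair of related antiproliferative proteins, had 41.3 and 128.3 CPM and 59.2 and 152.2 CPM, with 0.94 and 1.04 in other Lyz2 cells. Ifi27l2a, an interferon-stimulated gene, had 117.3 and 307.3 CPM, and 1.28 in other Lyz2 cells. Pnrc1, a nuclear receptor coactivator, had 118.0 and 294.6 CPM, and Gm47283 53.1 and 131.8 CPM.

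The named genes lowest with telmisartan included Inhba, Tnfrsf9 and Mgl2. Inhba, which encodes the activin A subunit, had 698.7 CPM in control and 265.7 in telmisartan members, a ratio of −1.40 (−1.56 to −1.23), and −0.39 in other Lyz2 cells. Tnfrsf9, the receptor 4-1BB, had 197.9 and 67.0 CPM, while its ligand Tnfsf9 had 84.0 and 213.6 CPM. The ratios were −1.56 for the receptor and 1.34 for the ligand, and in other Lyz2 cells they were −0.95 and 0.93. Mgl2, a galactose-binding lectin, had 417.9 and 172.0 CPM, a ratio of −1.28 (−1.49 to −1.08), and −1.17 in other Lyz2 cells. Cav1, a coat protein of caveolae, had 64.9 and 22.6 CPM, and Dst, a cytoskeletal linker, 68.0 and 22.6 CPM. Aoah, which deacylates bacterial lipopolysaccharide, had 61.1 and 28.2 CPM. The ratios were −1.53 for Cav1, −1.59 for Dst and −1.12 for Aoah, and in other Lyz2 cells −0.05, −0.59 and −0.12. Dusp6, a phosphatase of ERK kinases, had 208.2 and 104.3 CPM, just short of 2-fold. S100a8, a subunit of the neutrophil protein calprotectin, had 102.0 and 7.05 CPM, and its ratio went from −3.86 to −1.49 without the cell of each group that held the most.

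Mitosis genes were higher in telmisartan members. The list of 43 genes of G2 and mitosis summed to 1395 CPM (1349.9 to 1441) in control and 2601 CPM (2518 to 2687) in telmisartan members, a ratio of 0.90 (0.83 to 0.97), against 0.02 in other Lyz2 cells. In the Ereg type the same list had 1454 and 2294 CPM, a ratio of 0.66 (0.58 to 0.74), so that the direction was not particular to members. In the Cxcl9 type the ratio was 0.16 (0.13 to 0.20) and in the Folr2 type 0.14 (0.08 to 0.21). Of 19 genes with at least 100 UMIs, 17 were higher and 9 of them at least 2-fold, against 2407 and 77 of the 5123 genes. The numbers were 16 higher and 6 at least 2-fold when each cell had equal weight. Mki67, the proliferation antigen Ki-67, had 95.5 and 215.7 CPM, Ube2c, which tags mitotic cyclins for destruction, 50.4 and 137.4, Cks2, a partner of the cyclin-dependent kinases, 53.1 and 122.6, and Birc5, which encodes survivin, 42.0 and 87.4. Top2a, the topoisomerase that untangles chromosomes, had 105.4 and 178.3 CPM. Hmgb2, a chromatin protein abundant in dividing cells, had 225.8 and 372.8 CPM, a ratio of 0.72 against −0.11 in other Lyz2 cells.

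In both groups the transcripts of mitosis were concentrated in few members. After thinning, 21 of 213 control members held 57.7% of the list's UMIs and 13 of 126 telmisartan members held 58.9%. At least 2 UMIs of Mki67 and Top2a together were found in 16 of 213 control members, or 7.51% (4.35 to 11.9), and in 23 of 126 telmisartan members, or 18.3% (11.9 to 26.1). In other Lyz2 cells they were found in 14.3% (12.9 to 15.7) and 15.9% (14.4 to 17.5). Control members thus lay below the other Lyz2 cells of their pool, and telmisartan members overlapped theirs. With at least 1 UMI, the shares were 14.1% (9.71 to 19.5) of control and 24.6% (17.4 to 33.1) of telmisartan members. With at least 3 UMIs they were 6.10% (3.29 to 10.2) and 15.1% (9.33 to 22.5). At these other limits the intervals of control and telmisartan members overlapped. Without the 49 control and 43 telmisartan members that had any Mki67 or Top2a UMI, the ratio of the list was 0.13. Both genes belong to the list, so nothing is read from that value. Free RNA may add to such counts, and its part was not tested.

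**Figure D4:**
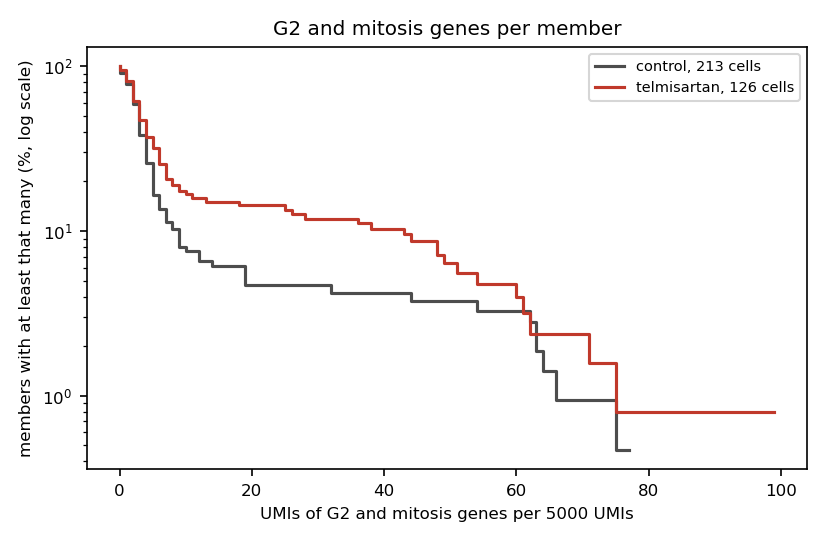
Percent of members, on a vertical log axis, with at least the number of G2 and mitosis UMIs on the horizontal axis, after thinning to 5000 UMIs, for 213 control and 126 telmisartan members. The telmisartan curve lies above the control curve over most of the range. The 13 telmisartan members with the most hold 58.9% of their group's UMIs.

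S phase genes followed at smaller size. The 32 genes summed to 676.9 CPM (645.8 to 709.2) in control and 1016 CPM (963.9 to 1069) in telmisartan members, a ratio of 0.59 (0.48 to 0.69), against −0.15 in other Lyz2 cells and 0.50 (0.39 to 0.62) in the Ereg type. In the Cxcl9 type the ratio was 0.04 (−0.01 to 0.09) and in the Folr2 type −0.21 (−0.30 to −0.12). Without members with a Mki67 or Top2a UMI the ratio in members was −0.0210, but that split is itself by cycling transcripts, so nothing is read from it. All 11 genes with at least 100 UMIs were higher, 2 of them at least 2-fold, and 10 of 11 were higher after thinning. Pcna, the sliding clamp of DNA polymerases, had 133.3 and 179.7 CPM, and Mcm6, part of the replicative helicase, 47.8 and 54.3.

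Chemokine genes were found on both sides. Of 17 chemotaxis genes with at least 100 UMIs, 11 were higher and 6 lower, 4 and 2 of them at least 2-fold, against 77 and 23 of all 5123 genes at least 2-fold. The list summed to 13005.3 and 14779.2 CPM. Cxcl1, which attracts neutrophils, had 416.4 CPM in control and 1009 in telmisartan members, whereas Cxcl3, a ligand of the same receptor, had 475.6 and 206.5. Their ratios of 1.28 (1.16 to 1.39) and −1.20 (−1.39 to −1.02) had the same signs in other Lyz2 cells, at 1.01 and −0.76. The monocyte attractants Ccl2 and Ccl7 had 809.5 and 1205 CPM and 164.6 and 349.6 CPM, at 0.57 and 1.09, and in other Lyz2 cells 0.09 and 0.19. Ccl17, a ligand of CCR4, had 119.2 and 8.46 CPM from UMIs in 18 control and 6 telmisartan members. Cxcl2 had 4886 and 5577 CPM.

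Cxcl10, an interferon-induced attractant of T cells, rested on few members. It had 125.7 CPM in control and 483.5 in telmisartan members, from UMIs in 31 and 25 cells. A single telmisartan member held 300 of the 686 UMIs of its group, and without that cell the ratio was 1.14 in place of 1.94. Without the top cell of each group it was 1.80. In T cells 5 of 39 and 7 of 72 had a UMI. The interferon-gamma list of 13 genes summed to 806.4 CPM (772.4 to 841.6) and 1128 CPM (1073 to 1184), a ratio of 0.48. It was −0.08 without Cxcl10 itself, 0.16 without that cell, 0.01 without the deepest 10% of members and −0.20 with a stricter Sample Tag limit of 90%, but 0.93 in members with at least 2 UMIs of each of Vcan, Lilra6 and Cd24a. The exclusion by Cxcl9 with Serpina3g, Iigp1 and Gbp2 had kept out 23 control and 8 telmisartan cells that had Vcan, Lilra6 and Cd24a. Its part in the ratio was not tested. Irf1, a transcription factor, had 84.8 and 165.6 CPM, while Cd274, which encodes PD-L1, had 207.8 and 143.8. The type I interferon list of 13 genes summed to 136.8 CPM (123.0 to 151.7) and 213.6 CPM (190.2 to 239.0), a ratio of 0.64, against 1.26 in other Lyz2 cells, and 0.15 in members with at least 2 UMIs of each of Vcan, Lilra6 and Cd24a. Of its 13 genes, 1 had at least 100 UMIs in members. Its most abundant gene was Slfn4 at 47.8 and 93.7 CPM, and without Slfn4 the ratio was 0.43. Without the top control cell the ratio was 0.85, without the top telmisartan cell 0.45, and without the top cell of each group 0.66.

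Inflammatory cytokines were slightly higher as a sum. The list had 6848 CPM (6748 to 6949) in control and 8147 CPM (7999 to 8297) in telmisartan members, a ratio of 0.25, or 0.0996 without Il1b, against 0.27 in other Lyz2 cells. Il1b, the gene of interleukin-1β, had 3762 and 4841 CPM, and Ptgs2, which makes prostaglandins, 1039.5 and 1250.3. Osm, the cytokine oncostatin M, had 859.5 and 659.0 CPM. Of 11 genes measured, 8 were higher and 3 lower, and 6 and 5 with each cell given equal weight. Among receptors, Trem1, an amplifier of inflammation, had 731.6 and 878.2 CPM, and Cd14, a lipopolysaccharide receptor, 2319 and 2906. Their list, growth factor receptors, had a ratio of 0.20 (0.17 to 0.24), or 0.12 without Cd14. Of its 14 genes measured, 8 were higher and 6 lower.

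Immediate-early genes had values of both signs. Fos, a subunit of the AP-1 transcription factor, had 2692 CPM in control and 1614 in telmisartan members, a ratio of −0.74 (−0.81 to −0.67). Fosb, its relative, had 1115 and 1606 CPM, a ratio of 0.53 (0.45 to 0.61). Nr4a1, the relative of Nr4a3, had 582.6 and 835.9 CPM. In other Lyz2 cells the ratios were −0.52 for Fos, 0.46 for Fosb and 0.60 for Nr4a1. Of the 18 genes measured, 9 were higher and 9 lower, close to the split of all 5123 genes, and the list summed to 12255.7 and 12151.0 CPM.

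Class II genes were lower with telmisartan. The list summed to 8463.5 CPM (8352 to 8576) in control and 6871 CPM (6735 to 7009) in telmisartan members, a ratio of −0.30 (−0.34 to −0.27), against −0.36 in other Lyz2 cells. It was −0.39 in the Cxcl9 type and −0.34 in the Folr2 type, but 0.35 (0.33 to 0.38) in the Ereg type. All 7 measured genes were lower in members, under each scaling tried. Cd74, the invariant chain, had 3759.8 and 2979.9 CPM and H2-Ab1, a class II beta chain, 1697 and 1406. Class I genes summed to 6926 and 7581 CPM, a ratio of 0.13 that was −0.02 without scaling for depth, and 4 of the 9 genes were higher and 5 lower. B2m, their light chain, had 3297 and 3556 CPM. Cd86, a costimulatory ligand of T cells, had 223.1 and 332.7 CPM, and Pvr, a ligand of the receptors TIGIT and CD226, 71.0 and 147.3. Both belong to the checkpoint and T cell contact list, with a ratio of 0.05 (−0.02 to 0.11). Of its 9 genes measured, 4 were higher and 5 lower.

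Spp1, the gene of osteopontin, was lower with telmisartan, at 5637 and 3747 CPM. It carried the sum of the lipid and lysosome list, whose ratio was −0.24 (−0.26 to −0.21) with Spp1 and 0.03 without it. Of the 12 genes measured, 9 were lower and 3 higher. Spp1 was at −0.59 in members and −0.72 in other Lyz2 cells, and Lgals3, which encodes galectin-3, had 2425 and 2786 CPM. Mrc1, the mannose receptor, had 306.8 and 212.1 CPM.

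Monocyte and macrophage lists differed little between the groups. Monocyte genes had a ratio of −0.10 (−0.14 to −0.07), which was 0.04 without Fn1, and macrophage markers 0.10 (0.05 to 0.15), which was −0.05 without scaling for depth. Within the lists, Plac8 had 38.2 and 86.7 CPM and Cx3cr1, the fractalkine receptor, 57.7 and 119.8, at 1.18 and 1.05. Ly6c2 was at 0.99 (0.75 to 1.23) in members and 1.36 in other Lyz2 cells. C1qc had a ratio of 0.60 (0.43 to 0.76) in members and −0.07 in other Lyz2 cells, and C1qb 0.42 and −0.03. The Folr2-type list, led by Pf4 in control and Stab1 in telmisartan members, summed to 299.9 and 370.7 CPM, a ratio of 0.31 against −0.09 in other Lyz2 cells. A single telmisartan member held 86 of its group's 526 UMIs, and the ratio was 0.0584 without it and 0.16 without the top cell of each group.

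Housekeeping groups were nearly level. Cytosolic ribosomal proteins summed to 105033.3 and 110144.4 CPM, a ratio of 0.07, with 66 of 76 higher, and 8 of 76 higher without scaling for depth. Ribosome biogenesis genes were at −0.10, translation factors at −0.08, MYC network genes at 0.07, or −0.07 without scaling for depth, and hypoxia and glycolysis genes at −0.03. None of these 5 lists had a gene at least 2-fold apart. Eif5a, a translation factor, had 1460.4 and 1092 CPM. Heat shock genes were at −0.04, or 0.02 without Hsp90ab1, and oxidative stress and iron genes at −0.07, with Fth1, the ferritin heavy chain, at 11367.6 and 10975.3 CPM.

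The receptors of telmisartan itself were at the floor of detection. Of the 7 genes listed, Agtr1a and Agtr1b, which encode the angiotensin II type I receptor, Agtr2 of the type II receptor and Agt of angiotensinogen had 0 UMIs in all 357 members. Pparg, a nuclear receptor that telmisartan can activate in part, had 2.67 CPM in control and 0.705 in telmisartan members, from 7 and 1 UMIs. Expression of the angiotensin receptor in members was not detectable at this depth.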

How the data were processed

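The deposited files hold counts, UMIs per gene and cell that the authors made with the BD Rhapsody pipeline 1.11 (GENCODE M19, GRCm38), and Sample Tag reads. A cell was given to a tag with at least 10 tag reads and at least 75% of them on 1 tag, and kept with 150 to 5000 genes and at most 20% mitochondrial UMIs.

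Members' UMIs were summed per group and scaled to CPM. Ratios carry exact conditional binomial, levels Poisson and shares Clopper-Pearson 95% intervals, and no test was made. Genes needed at least 100 UMIs in the members of both groups together. Against other Lyz2 cells, they needed 100 in members plus comparison cells in each group. Named genes, with at least 200 UMIs, were the 10 highest and 10 lowest with telmisartan, the 15 highest and 10 lowest in members against other Lyz2 cells in 5 depth bins, and up to 4 per list with those past 2-fold. Genes outside that rule, such as Fpr1, Hp, F13a1, Mertk and Pparg, belong to a list or were chosen after their values were seen. Members and lists were chosen with earlier results of these data known.

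Doublets were not removed. The 941 cells split between tags predict 9.51% hidden doublets per group, and an alternative left out the 942 cells of highest Scrublet score. Thinning drew 5000 or 3000 UMIs per cell. Other alternatives changed quality limits, rule counts, scaling and gene minimum. Cldn4, Pira6, Lilrb3, Sepp1 and Apoc2 were not measured under these symbols. Some list genes, and a list that holds 1 of them, are not reported.

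Python 3.11.15 ran numpy 2.4.6, scipy 1.17.1, pandas 2.3.3, scanpy 1.11.5 and matplotlib 3.10.9, and R 4.3.3 ran edgeR 4.0.16 and DESeq2 1.42.0. Positions and transcripts came from GENCODE M21. Only the ratios, their intervals and the 2-fold call were checked on simulated counts, which had counting error but no variation between cells. Cell selection, thinning and depth weighting were not checked that way.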

Additional observations from a re-analysis of the deposited data

Results flagged for a closer look

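Each value here is the log2 ratio of telmisartan over control, and each was picked because it had one sign in members and the other in other Lyz2 cells, with both counting intervals clear of 0 and a size of at least 0.5 in members. With 1 pool a group the difference between the cell sets was not tested.

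The neutrophil marker list was at −1.08 in members and 0.17 in other Lyz2 cells, and at −0.10 without 1 control member that held 326 neutrophil-marker UMIs among 5510. The S phase list was at 0.59 in members and −0.15 in other Lyz2 cells. It was at 0.50 in the Ereg type, 0.04 in the Cxcl9 type and −0.21 in the Folr2 type. In members without a Mki67 or Top2a UMI, a split by cycling transcripts, it was at −0.0210. Top2a, the topoisomerase of dividing cells, was at 0.76 and −0.09, and Hmgb2, a chromatin protein, at 0.72 and −0.11. C1qc, a chain of complement C1q, was at 0.60 and −0.07, from 662 UMIs in control and 542 in telmisartan members.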

How the results depend on the processing

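No paired analysis was possible because each group is 1 pool. Depth limits the definition, since a shallow cell seldom shows all 3 genes. Where a value moved, the cause was not tested unless stated.

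The share of Lyz2 cells that were members was 6.48% in control and 4.61% in telmisartan with at most 10% mitochondrial UMIs, 1.36% and 0.908% with at least 2 UMIs of each gene, 2.74% and 1.94% thinned to 5000 UMIs, and 1.503% and 0.801% thinned to 3000, where the log2 ratio was −0.91. It was lower with telmisartan under all of these settings.

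Of genes at least 2-fold apart, 37 were higher and 12 lower of 1944 tested with at least 2 UMIs of each gene, 44 and 48 without scaling for depth, 32 and 14 of 2713 after thinning, 300 and 254 of 8986 with at least 20 UMIs and 14 and 4 of 1268 with at least 500. With all members and CPM they were 77 and 23 of 5123, the same genes tested as without scaling for depth or with equal weight of cells. Without the deepest 10% of members 49 were higher, and with each cell given equal weight 37 were lower.

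Recomputing list sums, also without their most abundant gene or cell, and leaving out Mki67 or Top2a members or a single member, were chosen after seeing the data. The G2 and mitosis list was at 1.01 with at most 10% mitochondrial UMIs, 1.04 without the deepest 10%, 1.27 with at least 2 UMIs of each gene and 0.13 without members with a Mki67 or Top2a UMI, which removes part of the list by construction. The S phase list was at 0.75 without the deepest 10% and −0.0210 without members with a Mki67 or Top2a UMI, a split by cycling transcripts. The neutrophil list was at −0.0916 with at most 10% mitochondrial UMIs, 0.33, the opposite sign, with at least 2 UMIs of each gene, −0.0900 without Mki67 or Top2a members and −0.10 without 1 control member. The type I interferon list was at 0.15 with at least 2 UMIs of each gene and 0.88 without Mki67 or Top2a members. The interferon-gamma list was at −0.20 with 90% of tag reads on 1 tag, 0.0123 without the deepest 10%, 0.93 with at least 2 UMIs of each gene, 0.21 without Mki67 or Top2a members and 0.16 without the telmisartan member with the most Cxcl10 UMIs.

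Against cells with exactly 2 of the 3 genes, 1 gene, Lilra6, was higher and 13 lower in members of 6400 compared. Without cells that had a Mki67 or Top2a UMI, 9 of 8601 were higher, against 16 of 9562.

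Of the named genes that were past 2-fold, 0 had the opposite sign under any of the 13 settings tried. Without scaling for depth 70 of the 155 named genes moved past their counting interval, and with edgeR's TMM or DESeq2's size factors 0 did. Each of these settings shifts all genes alike, TMM by log2 0.03 and DESeq2 by 0.02, so nothing about stability is read from these counts. Mki67 and Top2a have no value without the members that hold them.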

Other observations

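Cells kept out of the members although they had UMIs of Vcan, Lilra6 and Cd24a numbered 40 in the control and 15 in the telmisartan group. Their median UMIs were 15430.5 and 14944, above the 11453 and 10187 of members. Of them, 19 and 7 met the Ereg definition and 23 and 8 the Cxcl9 definition.

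Id2, which blocks the DNA binding of other helix-loop-helix factors, had 992.1 and 969.1 CPM in members, at log2 0.71 and 0.63 over the depth-weighted other Lyz2 cells. Of the 4 genes compared in its list, which holds the Id genes with Smad6 and Smad7, 2 were higher and 2 lower in members in both groups. Type I interferon genes were lower in members, 11 of the 12 compared in both groups, where 58.8% in control and 54.5% in telmisartan of all 9562 genes were lower, with 136.8 and 213.6 CPM against 202.4 and 457.6. MHC class I genes were lower for 9 of 9, B2m at −0.41 and −0.45. Inflammatory Il1b was higher in members, at 0.60 and 0.70, and Trem1 at 0.65 and 0.67. Of the 13 inflammatory cytokine genes compared, 6 were higher and 4 lower in members in both groups. Without Il1b that list differed by 0.10 and −0.02. Because members were chosen against these cells, and a gene could pass the UMI limit through them alone, the values are a description.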
